A study of Zea mays with 96 samples.

Results

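In maize endosperm at 16 d after pollination (DAP), 91 of the 46430 genes in the count tables were close to the wild-type (WT) level in both the *nkd1* and the *nkd2* single mutant and lower in the *nkd1 nkd2* double mutant. They were chosen on CPM, the read count of a gene scaled to a common total of reads on genes. For each mutant, L was the log2 ratio of its mean CPM plus 1 to that of WT plus 1. A gene was kept where L lay between -0.5 and 0.5 in both single mutants and at or under -1 in *nkd1 nkd2*. Of 376 genes with L at or under -1 in *nkd1 nkd2*, the 91 made up 24.2%, and the other 285 passed the limit of 0.5 in at least one single mutant. Since the 16 DAP values of WT, *nkd1*, *nkd2*, and *nkd1 nkd2* chose the genes, these values are given as a description. The tests concern 8 and 12 DAP and the *o2* genotypes, whose libraries played no part in the choice.

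The libraries came from 7 mutant genotypes (*nkd1 nkd2 o2*, *nkd1 nkd2*, *nkd1 o2*, *nkd2 o2*, *nkd1*, *nkd2*, and *o2*) and from WT, all in the W22 inbred and all homozygous progeny of one selfed triple heterozygote. The mutant alleles were *nkd1-Ds*, *nkd2-null*, and *o2*. Endosperm was taken at 8, 12, and 16 DAP from field-grown plants, and each genotype had 4 libraries at each timepoint, 96 in all. For each library 3 endosperms of an ear were pooled, and no ear gave more than 1 of the 4 libraries of its group. The endosperm was taken whole, so fewer cells of a type and less RNA per cell cannot be told apart in these values.

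NKD1 and NKD2 are closely related zinc finger transcription factors of the INDETERMINATE domain family, encoded by duplicated genes. Loss of both gives the naked endosperm kernel, in which the aleurone, the outer cell layer of the endosperm, is disorganized. OPAQUE2 (O2) is a bZIP transcription factor best known as an activator of the zein genes, which encode the storage proteins of the starchy endosperm. Where paralogs cover for each other, genes that depend on them keep their level in single mutants and lose it in the double mutant, and this is the pattern the rule describes at 16 DAP.

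Reads on genes ran from 31327665 to 68052826 per library, and 13.4% to 29.0% of the deposited read total lay in rows that name no gene. Reads of *nkd2* were at or below 1.08 CPM in all libraries of the *nkd2* genotypes and at or above 6.69 CPM in the others, and reads of *o2* were at or below 1.30 CPM in the *o2* genotypes and at or above 19.9 CPM in the others. Transcripts of *nkd1* were still read at 32.3 to 144 CPM in the *nkd1* genotypes. At 16 DAP this range overlapped with that of the other genotypes, 81.8 to 756 CPM. Both ranges pool genotypes with and without the *o2* mutation, and the overlap lay between these backgrounds. At 16 DAP *nkd1* had 1391, 1265, 1493, and 1492 reads of this gene, against 3500, 3827, 3990, and 2610 in WT. It had 6990, 5477, 3931, and 4371 reads in *nkd1 o2*, against 33297, 22205, 25688, and 31633 in *o2*. At 8 DAP the *nkd1* genotypes were at or below 78.1 CPM and the others at or above 103 CPM. At 12 DAP these limits were 123 and 140 CPM. The 4 libraries of a group did not vary independently over the chosen genes. In *nkd1 nkd2* at 16 DAP, replicate 3 was the highest of the 4 libraries for 56 of the 91 genes, and replicate 4 was the lowest for 51. Over the 17742 genes of at least 1 CPM at 16 DAP, these shares were 11.3% and 33.6%. In *nkd1* at 16 DAP, replicate 3 was likewise the highest for 50 genes and replicate 4 the lowest for 50. The labels name no batch.

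L in *nkd1 nkd2* at 16 DAP ranged from -4.09 to -1.0 with a median of -1.19. Only 4 genes lay under -2, and 78 lay above -1.5, so most of the genes sat near the limit of the rule. In the single mutants the genes were not spread evenly about 0. L was below 0 for 77 of 91 genes in *nkd1*, with a median of -0.25, and for 50 of 91 in *nkd2*, with a median of -0.05. Over the 16677 genes of at least 1 CPM in WT at 16 DAP, the median L was -0.06 in *nkd1* and 0.17 in *nkd2*. The 91 genes thus lay below that background in both single mutants. The genes just inside the limit were *Zm00001d007937* and *Zm00001d043464*, with L of -1.0 in *nkd1 nkd2* for each, and the genes just outside were *Zm00001d023267* and *Zm00001d018034*, with L of -0.99 for each. At the limit on the single mutants, *Zm00001d003938* was inside with L of -0.50 in *nkd1*, and *Zm00001d019306* was outside with L of 0.50.

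The choice depended on the scale. CPM of the gene total and CPM after normalization by the trimmed mean of M-values (TMM) put the *nkd1 nkd2* libraries at 16 DAP apart by -0.31 on the log2 scale relative to WT. On the TMM scale the same limits gave 215 genes. They shared 75 with the 91, which is 82.4% of the 91 and 34.9% of the 215. Levels below are CPM of the gene total as mean ± SD with n = 4, and they are not corrected for gene length. Tests used TMM and edgeR's quasi-likelihood method, and differentially expressed genes (DEGs) were those past 1 or -1 in log2 fold change (log2FC) at an adjusted P-value under 0.05.

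**Figure D1:**
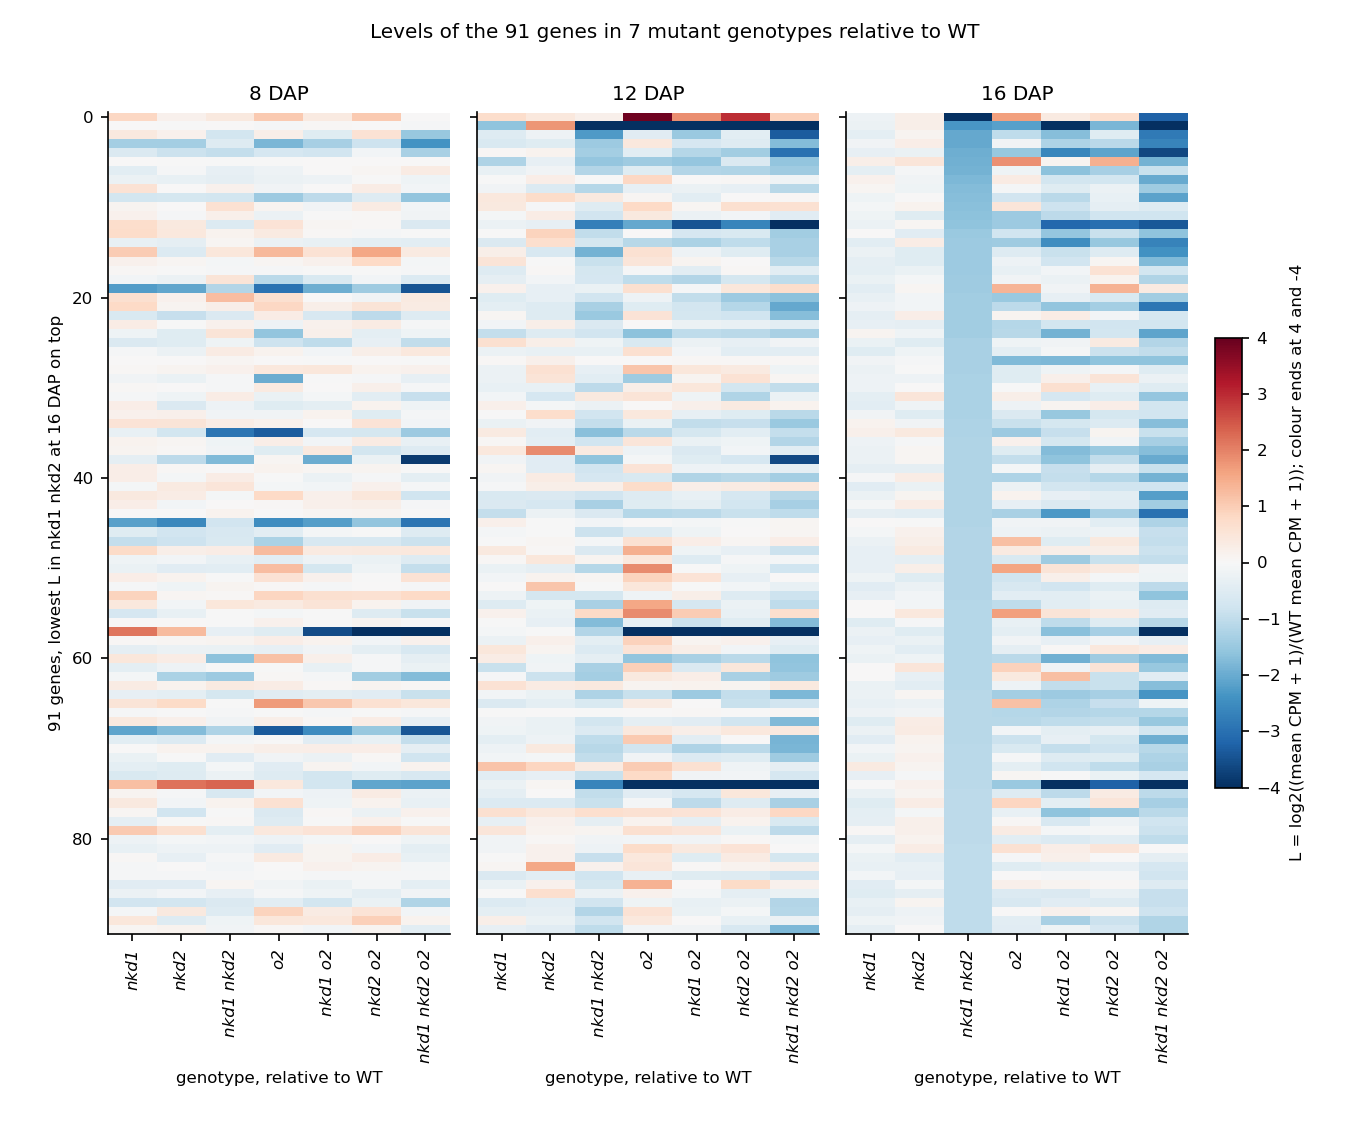
Log2 ratio L of mean CPM plus 1 to that of WT plus 1 for the 91 genes (rows, lowest L in *nkd1 nkd2* at 16 DAP at the top) in 7 mutant genotypes (columns) at 8, 12, and 16 DAP (panels), with colours that end at 4 and -4. The columns of *nkd1*, *nkd2*, and *nkd1 nkd2* at 16 DAP chose the genes, and at 12 DAP the median L was -0.75 in *nkd1 nkd2*, -0.12 in *nkd1*, and -0.09 in *nkd2*.

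Few of the genes have a name in the annotation used, which came from the study's own list of 1077 named genes. That list was drawn up on these libraries, so it is not an independent sample of the genome. It held 13 of the 91 genes and gave a product for 10, and the other 78 are given by identifier only. The products were an α-zein (*Zm00001d048852*, Zein-alpha A30), a mannose-specific jacalin-related lectin (*Zm00001d011012*), a thiamine monophosphate synthase (*Zm00001d039029*), a calcium-binding EF hand protein (*Zm00001d026638*), the CCAAT-binding transcription factor CA2P6 (*Zm00001d033215*), an alpha subunit-like protein of the nascent polypeptide-associated complex (*Zm00001d048479*), a triglyceride lipase (*Zm00001d025827*), a cytochrome P450 (*Zm00001d015578*), a WAK receptor-like kinase (*Zm00001d038915*), and one uncharacterized product.

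In WT at 16 DAP the mean level of the genes ran from 1.07 to 17961 CPM with a median of 9.73 CPM. Of the 91 genes, 47 were under 10 CPM and 2 were over 1000 CPM. WT means peaked at 16 DAP for 60 genes, at 12 DAP for 13, and at 8 DAP for 18. Between 8 and 12 DAP in WT, 50 of the 91 genes rose (54.9%) and 7 fell (7.69%), whereas 13.3% of all 27328 genes tested rose and 20.5% fell. The median log2FC of the 91 genes was 1.5, compared with -0.04 for all genes tested. Because 1 is added to both means, the rule could keep only genes of at least 1 CPM in WT at 16 DAP. All genes tested met no such condition, so the choice itself favours genes expressed late. How much of the excess of rising genes, and of the peaks at 16 DAP, comes from the choice was not tested. Among the 50 that rose, the median log2FC was 2.67, and 23 were above 3. The largest log2FC was that of *Zm00001d048852*, at 11.22 (SE 1.78, edgeR adjusted P = 1.3e-07). This α-zein had 2644, 5979, 5978, and 4831 CPM in WT at 12 DAP and 0.323, 0.778, 11.9, and 0.823 CPM in WT at 8 DAP.

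The 2 genes with the most reads carried most of the summed level. *Zm00001d048852* had 4549, 5500, 7955, and 3823 CPM in *nkd1 nkd2* at 16 DAP, against 11600, 11948, 10971, and 11196 CPM in WT. The α-zein genes include near-identical copies, and reads with more than one alignment stand in a row of their own, at 4.54% to 10.3% of the deposited read total per library. Whether such reads were also counted for genes is not given in the sources used here, so the share of these reads that belongs to this copy is uncertain. *Zm00001d045937*, listed without a product, had 9527, 8383, 7167, and 7348 CPM in *nkd1 nkd2*, against 19934, 17780, 16992, and 17136 CPM in WT. For both genes the highest *nkd1 nkd2* library was below the lowest WT library, a description only, since these libraries chose the genes. Summed over the 91 genes, the level at 16 DAP was 14716 ± 1902 CPM in *nkd1 nkd2*, 29758 ± 3296 CPM in *nkd1*, 29591 ± 2800 CPM in *nkd2*, and 33012 ± 1606 CPM in WT (SD, n = 4 each). Without the 2 genes it was 1153 ± 245 CPM in *nkd1 nkd2*, 3160 ± 571 CPM in *nkd1*, 3864 ± 601 CPM in *nkd2*, and 3623 ± 257 CPM in WT.

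The lowest L belonged to *Zm00001d052958*, a gene not named in the annotation. At 16 DAP it had 9.36, 5.2, 30.2, and 1.77 CPM in *nkd1 nkd2*, against 269, 137, 193, and 259 CPM in WT. The single mutants stayed in the WT range or near it, with 215, 210.3, 236, and 78.8 CPM in *nkd1* and 265, 299, 210.5, and 239 CPM in *nkd2*. Replicate 3 of *nkd1 nkd2* stood above its 3 companions, yet it was below all 12 libraries of the single mutants and WT. The jacalin-related lectin *Zm00001d011012*, of a family of sugar-binding proteins, had 124, 41.4, 414, and 23.6 CPM in *nkd1 nkd2* and 496, 798, 874, and 853 CPM in WT. Its replicate 3 was again the highest of the double mutant and lay below the lowest WT library. The 16 DAP libraries of these groups chose both genes, so their separation is not a test.

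**Figure D2:**
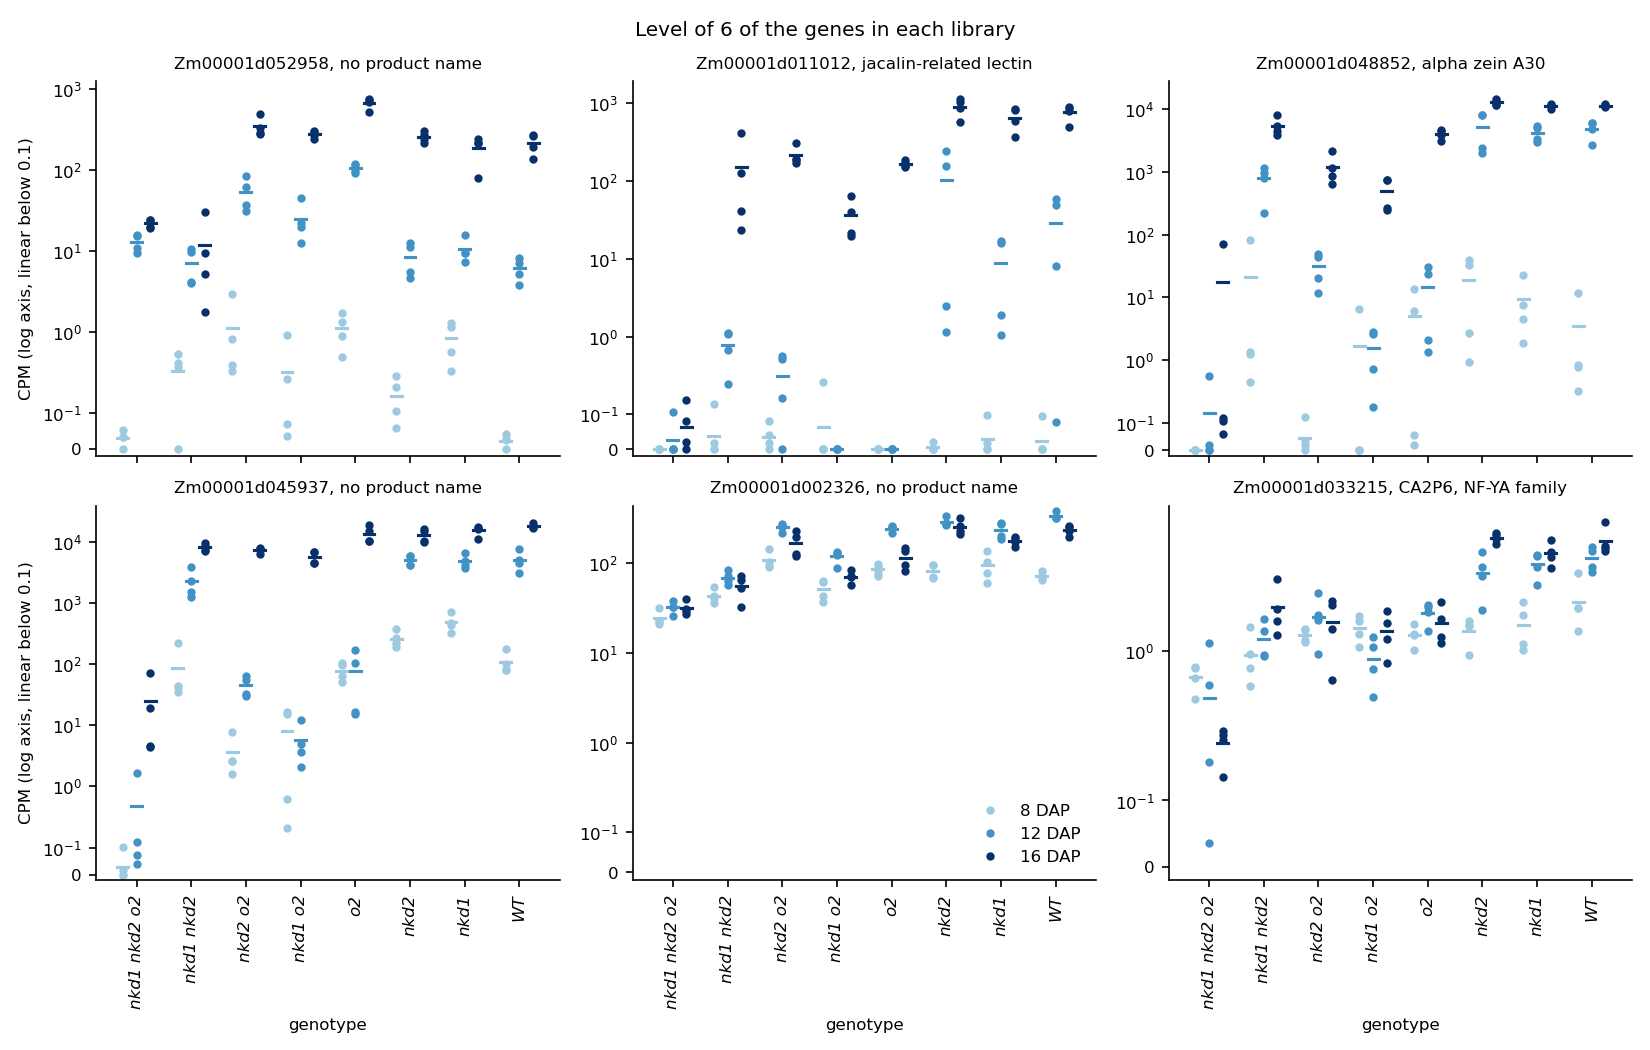
CPM (log axis, linear below 0.1) of 6 of the 91 genes in every library, by genotype, at 8, 12, and 16 DAP. Points are single libraries, and the 16 DAP libraries of *nkd1*, *nkd2*, *nkd1 nkd2*, and WT chose the genes, so their separation there is fixed by the choice. In *nkd1 nkd2 o2* at 16 DAP all 4 libraries of each gene shown lie below those of *o2*.

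The same double mutant at 12 DAP gives a test in libraries the rule did not use. Of the 91 genes, 89 passed the filter on low counts at 12 DAP. The median log2FC of *nkd1 nkd2* against WT was -1.34, compared with -0.01 for all 24504 genes tested. DEGs numbered 57 lower genes (62.6% of the 91) and 0 higher genes, whereas 5.17% of all genes tested were lower and 6.38% were higher. At an unadjusted P-value under 0.05, 2 of the 91 genes were higher, and DESeq2 called 1 higher, as did edgeR without replicate 3. After TMM, the 4 *nkd1 nkd2* libraries were all below the 4 WT libraries for 61 of the genes, against a background of 18.4% of all genes tested. On CPM of the gene total this held for 47 of the genes and 6.47% of all genes tested. Among the 57, the median log2FC was -1.71, and it was below -2 for 19 genes and below -3 for 6.

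The calcium-binding EF hand gene *Zm00001d026638* had 3.69, 1.62, 3.35, and 2.89 CPM in *nkd1 nkd2* at 12 DAP, against 15.9, 27.2, 26.3, and 30.1 CPM in WT. The groups did not overlap, and log2FC was -3.45 (SE 0.31, edgeR adjusted P = 3.5e-09). *Zm00001d002326* had 63.2, 56.3, 72.4, and 82.6 CPM in *nkd1 nkd2* and 313, 328, 375, and 317 CPM in WT, with a log2FC of -2.63 (SE 0.14, edgeR adjusted P = 7.1e-14). Both groups were tight, with SDs of 11.4 CPM in *nkd1 nkd2* and 28.2 CPM in WT. The α-zein *Zm00001d048852* had 1173, 217, 804, and 949.9 CPM in *nkd1 nkd2*, against the WT values given above, and log2FC was -2.97 (SE 0.83, edgeR adjusted P = 0.0077). *Zm00001d003938* had 0.256, 0.328, 0.704, and 0.603 CPM in *nkd1 nkd2* and 2.9, 3.84, 5.31, and 3.65 CPM in WT. Its log2FC was -3.39 (SE 0.43, edgeR adjusted P = 7.2e-07). On the scale of the rule, which adds 1 CPM, L was -1.74 at 12 DAP and -1.15 at 16 DAP.

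Genes with an annotated enzyme or regulator were among the lower ones as well. Thiamine monophosphate synthase, which joins the precursors of vitamin B1, had 6.11, 4.16, 7.24, and 7.13 CPM for *Zm00001d039029* in *nkd1 nkd2* at 12 DAP, against 23, 13.8, 15.8, and 17.5 CPM in WT. Log2FC was -1.85 (SE 0.18, edgeR adjusted P = 1.4e-08), and the groups did not overlap. CA2P6 (*Zm00001d033215*), a subunit of the NF-Y complex that binds CCAAT sequences, had 0.937, 0.922, 1.62, and 1.35 CPM in *nkd1 nkd2* and 3.36, 4.67, 3.64, and 4.93 CPM in WT, with a log2FC of -2.12 (SE 0.45, edgeR adjusted P = 0.00061). The nascent polypeptide-associated complex binds new proteins at the ribosome. Its alpha subunit-like gene *Zm00001d048479* had 0.788, 1.13, 0.423, and 0.841 CPM in *nkd1 nkd2* and 2.69, 2.75, 3.34, and 3.32 CPM in WT (log2FC -2.28, SE 0.31, edgeR adjusted P = 1.8e-06).

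Other named genes lower at 12 DAP were *Zm00001d033612* (log2FC -2.37), *Zm00001d033747* (-1.84), *Zm00001d014486* (-1.34), *Zm00001d007937* (-1.52), *Zm00001d043464* (-1.21), and *Zm00001d029778* (-1.07). The *nkd1 nkd2* libraries were all below the WT libraries in each except *Zm00001d029778*, which had 1.41, 1.33, 2.08, and 2.12 CPM in *nkd1 nkd2* and 1.89, 2.7, 2.9, and 3.97 CPM in WT and was free of overlap only after TMM. The lectin *Zm00001d011012* was called lower (log2FC -5.55, SE 1.65, edgeR adjusted P = 0.015), but its groups overlapped. It had 0.682, 0.246, 1.09, and 1.1 CPM in *nkd1 nkd2*, against 0.0796, 57.7, 49.3, and 8.04 CPM in WT. One WT ear thus had hardly any lectin transcript at 12 DAP, whereas the others had 8.04 to 57.7 CPM.

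Not all genes that were low in *nkd1 nkd2* at 16 DAP were lower at 12 DAP. *Zm00001d052958*, with the lowest L at 16 DAP, had 9.76, 10.3, 4.12, and 4.04 CPM in *nkd1 nkd2* at 12 DAP and 3.78, 7.14, 8.09, and 5.13 CPM in WT. These groups overlapped (log2FC -0.13, SE 0.42, edgeR adjusted P = 0.85), before a WT level of 214 ± 61.7 CPM at 16 DAP. *Zm00001d045937* had 3924, 2292, 1491, and 1268 CPM in *nkd1 nkd2* and 3021, 5058, 4438, and 7641 CPM in WT, and the difference did not pass the test (log2FC -1.51, SE 0.67, edgeR adjusted P = 0.088). *Zm00001d047253* and *Zm00001d018830* did not pass either, with log2FC of -0.25 and 0.05. For *Zm00001d018830*, 166, 550.1, 898, and 912 CPM in *nkd1 nkd2* overlapped with 1142, 215, 220.2, and 357 CPM in WT. The triglyceride lipase *Zm00001d025827*, an enzyme that breaks down storage oil, had a log2FC of 0.06 at 12 DAP (edgeR adjusted P = 0.94).

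Few of these genes passed the test in the single mutants at 12 DAP, although more had a negative than a positive log2FC. In *nkd1*, 3 genes were lower and 1 was higher of 89 tested (median log2FC -0.24), with 0.673% lower and 1.05% higher among all genes tested. In *nkd2*, 1 gene was lower and 3 were higher (median log2FC -0.25), with 1.13% lower and 1.07% higher among all genes tested. Log2FC was negative for 67 of the 89 genes in *nkd1* and for 56 in *nkd2*, compared with 49.4% and 49.2% of all genes tested. At an unadjusted P-value under 0.05, 22 genes were lower and 3 higher in *nkd1* (9.41% and 9.56% of all genes tested), and 22 were lower and 11 higher in *nkd2* (11.1% and 13.3%). The 3 lower in *nkd1* were *Zm00001d016938*, *Zm00001d001996*, and *Zm00001d043071*, and the 1 lower in *nkd2* was *Zm00001d026290*. These small counts moved with single replicates. In *nkd1* 1 gene was lower without replicate 2 or 3 and 0 were higher without any one of the 4, and in *nkd2* 4 were lower without replicate 4 and 0 were higher without replicate 2. The contrasts of both single mutants and of the double mutant share the WT libraries.

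Whether the double mutant fell further than the single mutants add up to was tested by the interaction of *nkd1* and *nkd2* on the log2 scale, which was called at an adjusted P-value under 0.05. At 12 DAP the interaction was negative for 26 of the 91 genes (28.6%) and positive for 0, whereas it was negative for 6.10% and positive for 4.87% of all genes tested. At an unadjusted P-value under 0.05, 46 were negative and 0 were positive, and DESeq2 called 0 positive. The count fell to 10 without replicate 1 and to 8 without replicate 2. The median interaction was -0.96 over the genes tested, compared with -0.02 for all genes. For *Zm00001d002326* it was -1.67 (edgeR adjusted P = 3.7e-06), with 185, 199, 276, and 270.5 CPM in *nkd1* and 267, 274, 278, and 336 CPM in *nkd2*. The *nkd1* libraries were all below WT, the *nkd2* libraries overlapped with WT, and the double mutant was below all 12 other libraries. For thiamine monophosphate synthase (*Zm00001d039029*) it was -1.80 (edgeR adjusted P = 3.8e-05), with 19.1, 19.3, 17.7, and 15.9 CPM in *nkd1* and 16.9, 15.8, 18.5, and 26.1 CPM in *nkd2*, which overlapped with WT. The EF hand gene *Zm00001d026638* had an interaction of -2.64 (edgeR adjusted P = 0.00012), with 19.4, 18.9, 25, and 20.7 CPM in *nkd1* and 21.5, 28.1, 18.1, and 11.2 CPM in *nkd2*.

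At 8 DAP the pattern was weak. Of 84 genes tested, 9 were lower in *nkd1 nkd2* (9.89% of the 91) and 3 were higher (3.30%), against 1.48% lower and 1.75% higher among all 25467 genes tested. The median log2FC was -0.13, compared with -0.02 for all genes. The count of lower genes was 5 without replicate 1 and 4 without replicate 3, and the count of higher genes was 1 without replicate 3 and 0 without replicate 4. *Zm00001d017027* (log2FC -4.44) and *Zm00001d018838* (-3.31), named after their values were seen, had the largest falls but few reads, with 1, 4, 0, and 0 reads of *Zm00001d017027* in *nkd1 nkd2* and 11, 23, 17, and 55 in WT. *Zm00001d034871* had the largest fall among genes of at least 1 CPM in the higher group whose groups did not overlap, with 4.58, 4.09, 3.94, and 4.59 CPM in *nkd1 nkd2* and 40.5, 34.4, 45.6, and 35.5 CPM in WT (log2FC -3.21, SE 0.74, edgeR adjusted P = 0.0041). Its single libraries fell into a low and a high set within genotypes, with 44.2, 40.3, 40.1, and 2.53 CPM in *nkd1* and 4.55, 3.44, 43, and 41.3 CPM in *nkd2*. *Zm00001d047345* had 1.63, 1.53, 1.78, and 2.85 CPM in *nkd1 nkd2* and 8.67, 6.1, 6.31, and 11.5 CPM in WT (log2FC -2.08, SE 0.30, edgeR adjusted P = 2e-05). It did not pass the test at 12 DAP (log2FC -0.73, edgeR adjusted P = 0.08).

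*Zm00001d026290* was lower in *nkd2* as well at the earlier timepoints. At 8 DAP it had 1.55, 1.03, 1.17, and 1.27 CPM in *nkd1 nkd2*, 1.82, 1.87, 1.51, and 1.08 CPM in *nkd2*, and 4.25, 5.98, 5.19, and 5.2 CPM in WT. The *nkd1 nkd2* and *nkd2* libraries overlapped with each other and lay below all of WT (log2FC -2.07 and -1.63, edgeR adjusted P = 2.6e-07 and 2.4e-05). At 12 DAP log2FC was -1.30 in *nkd2* (edgeR adjusted P = 0.0011) and -0.14 in *nkd1* (edgeR adjusted P = 0.82). At 16 DAP, where the gene was chosen, it had 2.43, 2.41, 1.88, and 2.49 CPM in *nkd2* and 3.87, 2.33, 3.73, and 2.51 CPM in WT. Its identifier number lies 177 from that of *nkd2*. Positions on the genome were not used here, and a role of linkage was not tested.

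Other genes lower at 8 DAP included *Zm00001d051754*, with 16.8, 8.58, 7.85, and 9.7 CPM in *nkd1 nkd2* and 52.5, 35.7, 44.6, and 23.8 CPM in WT (log2FC -1.90, edgeR adjusted P = 0.026), CA2P6 (*Zm00001d033215*, -1.20, edgeR adjusted P = 0.0049), *Zm00001d026638* (-2.73, edgeR adjusted P = 0.042), and *Zm00001d039029* (-1.46, edgeR adjusted P = 0.046). *Zm00001d047503* was higher, with 7.77, 7.62, 14.4, and 8.65 CPM in *nkd1 nkd2* and 3.53, 4.54, 4.62, and 1.4 CPM in WT (log2FC 1.43, SE 0.35, edgeR adjusted P = 0.006). At 12 DAP the same gene was lower (log2FC -1.21, edgeR adjusted P = 1.4e-05). *Zm00001d052958* was also called higher at 8 DAP (log2FC 3.73, edgeR adjusted P = 0.022), on 0, 20, 27, and 22 reads in *nkd1 nkd2* and 0, 1, 1, and 2 reads in WT. The single mutants at 8 DAP gave 2 lower and 7 higher genes in *nkd1* (5.06% lower and 1.39% higher among all genes tested) and 5 lower and 0 higher genes in *nkd2* (4.15% and 0.683%). In *nkd2*, 8 genes were higher at an unadjusted P-value under 0.05, and DESeq2 called 3. The count of lower genes in *nkd1* was 0 without replicate 1 or 3 and 6 without replicate 2, and that in *nkd2* was 1 without replicate 1 and 8 without replicate 4.

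**Figure D3:**
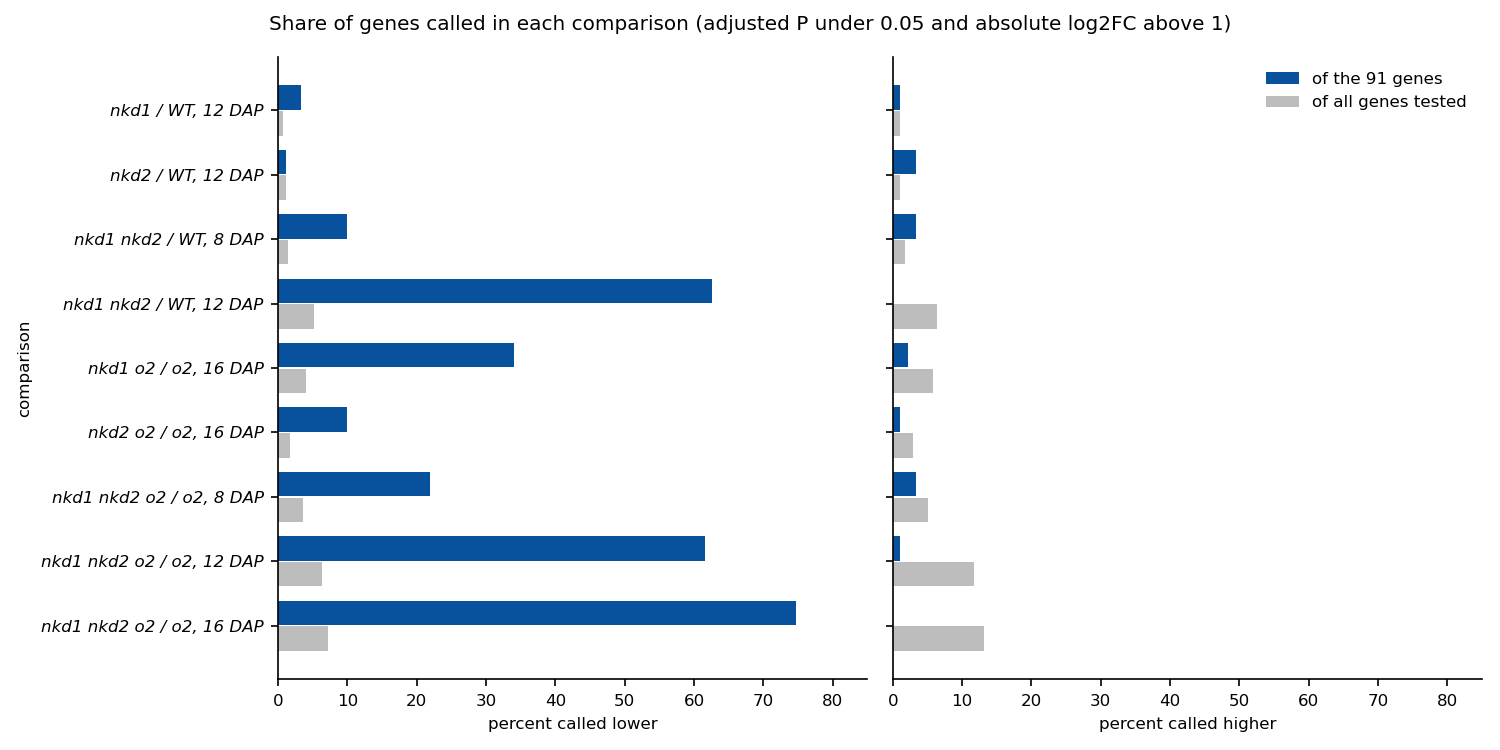
Percent of the 91 genes and of all genes tested that were called lower (left) and higher (right) in 9 comparisons at 8, 12, and 16 DAP. In *nkd1 nkd2* against WT at 12 DAP, 62.6% of the 91 genes were lower, compared with 5.17% of all genes tested.

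The loss of both NKD genes was repeated in the *o2* background, where *nkd1 nkd2 o2* was compared with *o2*. At 16 DAP all 91 genes were tested. Of these, 68 were lower in *nkd1 nkd2 o2* (74.7%) and 0 were higher, with 7.21% lower and 13.2% higher among all 24239 genes tested. At an unadjusted P-value under 0.05, 1 gene was higher, and DESeq2 called 0. The median log2FC was -1.42, compared with 0.00 for all genes tested. After TMM, the groups did not overlap for 68 genes, all lower, and 21.9% of all genes tested were lower without overlap. On CPM of the gene total, 61 of the genes were lower and 2 higher without overlap, against 10% and 37% of all genes tested. Among the 68 lower genes, the median log2FC was -1.78, and it was below -2 for 30 and below -3 for 16. The summed level of the 91 genes was 1096 ± 78.2 CPM in *nkd1 nkd2 o2* and 20645 ± 4235 CPM in *o2*, and without the 2 genes with the most reads it was 1053 ± 82.8 CPM in *nkd1 nkd2 o2* and 3043 ± 138 CPM in *o2*.

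The 2 genes with the most reads in WT had few reads in the triple mutant. *Zm00001d045937* had 4.36, 4.59, 19.2, and 72.3 CPM in *nkd1 nkd2 o2* at 16 DAP, against 18809, 10229, 10406, and 14785 CPM in *o2* (log2FC -9.40, SE 0.72, edgeR adjusted P = 1.9e-10). The α-zein *Zm00001d048852* had 0.105, 0.058, 0.117, and 70.7 CPM in *nkd1 nkd2 o2* and 3877, 3129, 4624, and 4546 CPM in *o2* (log2FC -8.17, SE 1.35, edgeR adjusted P = 2.4e-05). Replicate 4 of the triple mutant held nearly all of its zein reads, 3443 compared with 3 to 6 in its companions, and it was still below every *o2* library. The jacalin-related lectin *Zm00001d011012* had 1, 8, 0, and 4 reads in the 4 triple mutant libraries and 6371 to 12030 reads in the *o2* libraries (log2FC -11.55, SE 1.05, edgeR adjusted P = 4e-09).

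*Zm00001d052958* had 19.8, 24, 19.1, and 24.2 CPM in *nkd1 nkd2 o2* at 16 DAP and 715, 675, 744, and 521 CPM in *o2* (log2FC -5.25, SE 0.55, edgeR adjusted P = 3.6e-08). The *o2* libraries were all above the 4 WT libraries of 137 to 269 CPM. *Zm00001d008435* had 0, 0.135, 0.0195, and 0.041 CPM in *nkd1 nkd2 o2* and 4.4, 3.72, 5.25, and 3.99 CPM in *o2* (log2FC -6.66, SE 0.72, edgeR adjusted P = 1.7e-08). For this gene the triple mutant was close to the detection limit, with 7 or fewer reads per library. Thiamine monophosphate synthase (*Zm00001d039029*) had 0.464, 0.445, 0.176, and 0.739 CPM in *nkd1 nkd2 o2* and 4.59, 5.61, 3.96, and 7.7 CPM in *o2* (log2FC -3.91, SE 0.27, edgeR adjusted P = 2.4e-12). CA2P6 (*Zm00001d033215*) had 0.274, 0.29, 0.254, and 0.144 CPM in *nkd1 nkd2 o2* and 1.24, 1.63, 2.12, and 1.12 CPM in *o2* (log2FC -2.96, SE 0.36, edgeR adjusted P = 8.3e-08). Each of these genes was lower in all 4 triple mutant libraries than in all 4 *o2* libraries.

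Some genes that did not pass the test in *nkd1 nkd2* at 12 DAP were lower here. The triglyceride lipase *Zm00001d025827* had 3.58, 4.41, 3.69, and 3.16 CPM in *nkd1 nkd2 o2* and 10.4, 10.8, 10.2, and 8.41 CPM in *o2* (log2FC -1.74, SE 0.30, edgeR adjusted P = 2.1e-05). Log2FC was -2.0 for *Zm00001d006454*, -1.52 for *Zm00001d047253*, and -2.11 for *Zm00001d018830*, and all 3 passed the test with no overlap between the groups. Falls of *Zm00001d002326* (-2.17), *Zm00001d033612* (-2.42), *Zm00001d033747* (-2.87), *Zm00001d026638* (-2.64), *Zm00001d014486* (-1.12), *Zm00001d029778* (-1.38), *Zm00001d003938* (-1.38), and *Zm00001d048479* (-1.20) also passed.

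**Figure D4:**
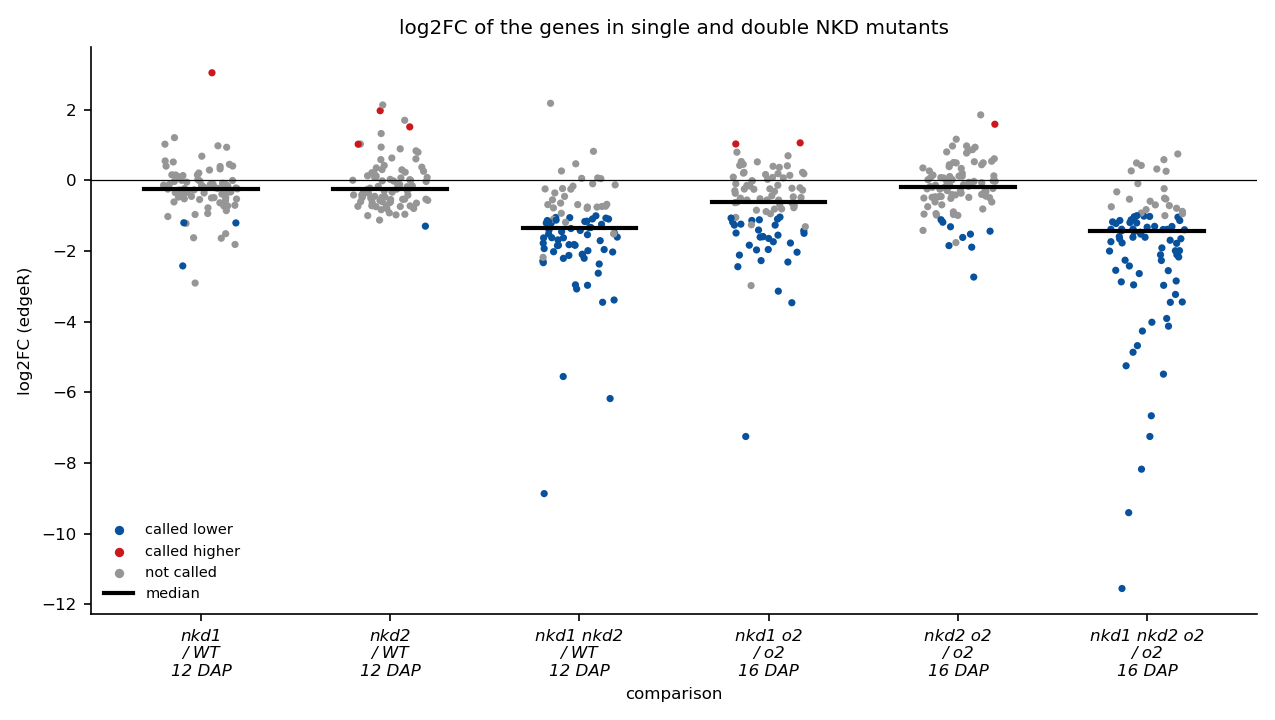
Log2FC of the genes tested among the 91 (points) in 6 comparisons, with the median of each comparison as a bar. The medians were -1.34 in *nkd1 nkd2* against WT at 12 DAP and -1.42 in *nkd1 nkd2 o2* against *o2* at 16 DAP, and -0.24 and -0.25 in *nkd1* and *nkd2* against WT at 12 DAP.

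Single NKD mutations were also compared within the *o2* background. In *nkd1 o2* at 16 DAP, 31 of the 91 genes were lower than in *o2* (34.1%) and 2 were higher, with 3.99% lower and 5.87% higher among all genes tested. The median log2FC was -0.62, or -0.56 with genes at 0 reads set to a floor of 3 reads per library. The count of lower genes was 19 without replicate 1 and 17 without replicate 2. In *nkd2 o2*, 9 genes were lower (9.89%) and 1 was higher, with 1.67% lower and 2.96% higher among all genes tested, and the median log2FC was -0.18. The count of lower genes was 5 without replicate 2, and that of higher genes was 0 without replicate 3 and 8 without replicate 4. The word redundant thus describes how the genes were chosen at 16 DAP in the *O2+* background, and it did not hold for all of them in the *o2* background.

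The lectin *Zm00001d011012* was lower with *nkd1* and not called with *nkd2*. It had 19.5, 64.6, 21.6, and 40.3 CPM in *nkd1 o2*, below all *o2* libraries at 186, 169.8, 153, and 152 CPM (log2FC -2.31, SE 0.59, edgeR adjusted P = 0.0047). In *nkd2 o2* it had 167, 187, 189.9, and 309 CPM, which overlapped with *o2* (log2FC 0.35, edgeR adjusted P = 0.75). The α-zein *Zm00001d048852* had 267, 752, 249, and 748 CPM in *nkd1 o2* and 1168, 648, 869, and 2123 CPM in *nkd2 o2*, all below *o2*, and the test was passed in *nkd1 o2* (log2FC -3.14, edgeR adjusted P = 0.029) and missed in *nkd2 o2* (-1.76, edgeR adjusted P = 0.28). The EF hand gene *Zm00001d026638* was lower with either mutation, with 2.9, 1.98, 3.44, and 4.14 CPM in *nkd1 o2*, 3.32, 2.81, 2.12, and 5.41 CPM in *nkd2 o2*, and 12.3, 12.2, 13.2, and 10.9 CPM in *o2*. Its 4 libraries of *nkd1 nkd2 o2*, at 2.13, 2.03, 2.38, and 3.18 CPM, overlapped with those of both.

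The interaction of *nkd1* and *nkd2* in the *o2* background at 16 DAP was negative for 37 of the 91 genes (40.7%) and positive for 6 (6.59%), with 9.76% negative and 8.5% positive among all genes tested. The median was -0.95, compared with -0.03 for all genes. The count of negative interactions was 22 without replicate 1 and 23 without replicate 2, and that of positive ones was 2 without either. Negative terms included *Zm00001d011012* (-9.59, SE 1.22, edgeR adjusted P = 6.7e-06), *Zm00001d045937* (-7.06, SE 0.79, edgeR adjusted P = 9.5e-07), *Zm00001d052958* (-2.83, SE 0.66, edgeR adjusted P = 0.0039), CA2P6 (*Zm00001d033215*, -2.65, SE 0.47, edgeR adjusted P = 0.0002), and *Zm00001d002326* (-1.82, SE 0.30, edgeR adjusted P = 9.8e-05). CA2P6 had 1.19, 1.85, 0.83, and 1.52 CPM in *nkd1 o2* and 2.04, 0.635, 1.4, and 2.17 CPM in *nkd2 o2*, which overlapped with *o2*, while the triple mutant was below all 12. Positive terms were found for *Zm00001d026638* (1.32, edgeR adjusted P = 0.015) and *Zm00001d048479* (2.27, edgeR adjusted P = 0.006), genes that were already lower in both *nkd1 o2* and *nkd2 o2*. The zein *Zm00001d048852* did not pass (-3.28, SE 1.44, edgeR adjusted P = 0.12).

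At 12 DAP, 56 of 89 genes tested were lower in *nkd1 nkd2 o2* than in *o2* (61.5% of the 91) and 1 was higher, with 6.39% lower and 11.7% higher among all genes tested. The median log2FC was -1.58, or -1.5 with genes at 0 reads set to the floor, and it was below -2 for 30 of the 56 and below -3 for 14. At 8 DAP, 20 of 84 were lower (22.0% of the 91) and 3 were higher, with 3.6% lower and 5.16% higher among all genes tested, and the median log2FC was -0.50. At that age *Zm00001d051754* had 0.527, 0.187, 0.577, and 5.97 CPM in *nkd1 nkd2 o2* and 45.9, 52.3, 35.6, and 32.6 CPM in *o2* (log2FC -4.59, SE 0.65, edgeR adjusted P = 6.4e-06). *Zm00001d047345* had 7.26, 5.43, 6.21, and 5.7 CPM in *nkd1 nkd2 o2* and 20.4, 18.7, 22.5, and 17.2 CPM in *o2* (log2FC -1.75, edgeR adjusted P = 2.8e-05). In both genes the groups were far apart. *Zm00001d034871* went the other way, with 10.8, 17.9, 13.7, and 11.8 CPM in *nkd1 nkd2 o2* and 3.16, 3.49, 2.65, and 2.78 CPM in *o2* (log2FC 2.1, edgeR adjusted P = 0.028).

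The effect of losing both NKD genes was then compared between backgrounds at 12 DAP by the term for its difference, *nkd1 nkd2 o2* against *o2* minus *nkd1 nkd2* against WT. It was negative for 14 of the 91 genes (15.4%) and positive for 5 (5.49%), with 7.38% negative and 7.46% positive among all genes tested. Without replicate 4 it was negative for 7 and positive for 2, and without replicate 2 or 3 it was positive for 3. The fall was larger with *o2* for *Zm00001d045937*, at 0.0407, 0.126, 1.68, and 0.0734 CPM in *nkd1 nkd2 o2* and 104, 171, 16.2, and 15 CPM in *o2* (difference -5.99, SE 1.11, edgeR adjusted P = 0.00073). *Zm00001d052958* had 9.47, 15.3, 15.5, and 10.7 CPM in *nkd1 nkd2 o2* and 96.4, 89.7, 117, and 115 CPM in *o2* (difference -3.05, SE 0.60, edgeR adjusted P = 0.0011). In the *O2+* background this gene was near 6 to 7 CPM in both genotypes at 12 DAP, and the *o2* mutant was higher than WT (log2FC 3.81, SE 0.45, edgeR adjusted P = 5.7e-07). *Zm00001d051754* had 7.05, 8.42, 5.2, and 6.62 CPM in *nkd1 nkd2 o2* and 95.7, 71.4, 93.1, and 96.2 CPM in *o2*, against 34, 25, 29.9, and 31 CPM in *nkd1 nkd2* and 90.6, 83.5, 96.2, and 105 CPM in WT (difference -1.86, SE 0.29, edgeR adjusted P = 0.0001).

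With the *o2* mutation alone, some of these genes were lower and others higher at 8 and 12 DAP. At 12 DAP, 15 were lower and 5 were higher in *o2* than in WT (6.57% and 3.16% of all genes tested), and at 8 DAP 11 were lower and 12 were higher (13.5% and 1.94%). The lower genes numbered 9 at 12 DAP without replicate 2 and 6 at 8 DAP without replicate 3. The zein *Zm00001d048852* had 23.7, 30.8, 1.31, and 2.09 CPM in *o2* at 12 DAP and 2644 to 5979 CPM in WT (log2FC -8.69, SE 1.08, edgeR adjusted P = 1.2e-06). The lectin *Zm00001d011012* had 0 reads in all 4 *o2* libraries at 12 DAP, which allows up to 3 reads per library, and 153 to 186 CPM in *o2* at 16 DAP. At 16 DAP, where the WT libraries were used in the choice, L of *o2* was below 0 for 67 of the 91 genes. The median L was -0.36, compared with 0.35 over the 16677 genes of at least 1 CPM in WT. L of *o2* was at or under -1 for 20 of the 91 genes and for 2.83% of those 16677. It was within 0.5 of 0 for 47 genes, below for 34, and above for 10. On the TMM scale, which shifts *o2* by -0.39 relative to WT, these counts were 21, 61, and 9. Between *nkd1 nkd2 o2* and *nkd1 nkd2* at 16 DAP, 41 genes were lower in the triple mutant and 49 higher on CPM, while on the TMM scale 57 were lower and 33 higher, so no direction is given.

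**Figure D5:**
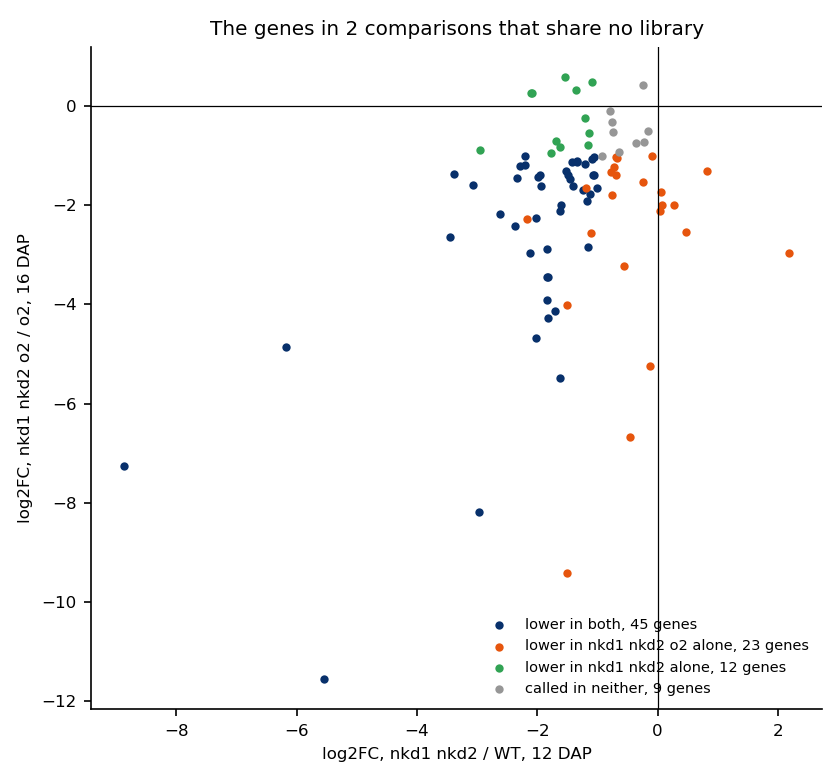
Log2FC of 89 of the 91 genes in *nkd1 nkd2* against WT at 12 DAP (x axis) and in *nkd1 nkd2 o2* against *o2* at 16 DAP (y axis), comparisons without a shared library. Colours mark genes lower in both (45), in the triple mutant alone (23), in the double mutant alone (12), and in neither (9). The share of all genes lower in both was not computed.

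The comparisons of *nkd1 nkd2* with WT at 12 DAP and of *nkd1 nkd2 o2* with *o2* at 16 DAP share no library. Lower in both were 45 genes, which is 78.9% of the 57 and 66.2% of the 68, and 35 genes were lower in the *o2* background at 12 DAP as well. Of all genes tested, 5.17% were lower in the first comparison and 7.21% in the second. The share of all genes lower in both was not computed, so no excess is read from the overlap. In none of the 3 comparisons were 8 genes lower, among them the cytochrome P450 *Zm00001d015578* and the WAK receptor-like kinase *Zm00001d038915*, a class of kinases that bind the cell wall. Neither of these was tested at 12 DAP for want of reads. The 7 genes that fell in WT between 8 and 12 DAP were all lower in *nkd1 nkd2 o2* at 16 DAP by edgeR, with log2FC from -3.23 to -1.0, and 6 were by DESeq2. In *nkd1 nkd2* at 12 DAP, where their log2FC ran from -1.10 to 0.82, 0 of the 7 were lower by edgeR or DESeq2, and 0 at an unadjusted P-value under 0.05. The WT libraries at 12 DAP that picked these 7 genes were also the reference of that comparison. Picking genes for low WT values there shifts their log2FC upward. The count of 0 is thus not independent of the choice, and no conclusion is drawn from its difference from the count at 16 DAP. *Zm00001d017027*, picked out after its values were seen, had 0 reads in every library of *nkd1 nkd2* at 12 and 16 DAP, which allows up to 3 reads per library, and 39, 18, 50, and 47 reads in WT at 16 DAP. In *nkd1* at 16 DAP it had 50, 61, 0, and 5 reads, so the 4 ears of this genotype ran from 0 to 61 reads. At 12 DAP *nkd1* had 49, 47, 1, and 6 reads. All libraries of *nkd1 o2* and *nkd1 nkd2 o2* at 16 DAP had 0 reads of this gene. Those of *o2* had 26, 25, 6, and 29 reads, and those of *nkd2 o2* had 80, 61, 68, and 97. At 16 DAP in the *o2* background its reads were thus absent with *nkd1* alone. This did not hold at 12 DAP, where *nkd1 o2* had 19, 18, 10, and 0 reads. The triple mutant had 1, 1, 59, and 60 reads at 12 DAP, and *o2* had 60, 35, 0, and 4.

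Zein genes as a group moved with these genes, and their levels stand beside the results for that reason. The 13 zein genes named in the annotation held 1 of the 91, the α-zein, and the same list was drawn up on these libraries. Of the 13, 10 were lower and 0 higher in *nkd1 nkd2* at 12 DAP (median log2FC -2.08), and 12 were lower and 0 higher in *nkd1 nkd2 o2* against *o2* at 16 DAP (median -7.41). Among all genes tested, 5.17% were lower and 6.38% higher in the first comparison, and 7.21% and 13.2% in the second. As a marker of starchy endosperm, the summed level of 15 zein genes at 12 DAP was 22328 to 37776 CPM in *nkd1 nkd2* and 49611 to 97563 CPM in WT. The 15 also include *Zm00001d048852*. At 16 DAP it was 16.8 to 788 CPM in *nkd1 nkd2 o2* and 29172 to 34187 CPM in *o2*. Of the 15, 1 was at 0 in each of the triple mutant and *o2* at 16 DAP. The part of changed cell content in the results was not tested. The 47 annotated regulators held 1 of the 91, CA2P6. Of 43 tested in *nkd1 nkd2* at 12 DAP, 7 were lower and 3 higher (5.17% and 6.38% of all genes tested). The lists of starch (2 genes), oil and lipid (7), transport (32), hormone (14), cell wall (9), chromatin and cell cycle (20), protein folding (12), protease and inhibitor (17), maturation (2), and pigment genes (2) held none of the 91. The aleurone marker C1 was at or below 0.851 CPM in all libraries, and markers of the other cell types were not in the annotation used.

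Identifier numbers stand in for position in these files. Within 500 numbers of *nkd1* or *nkd2* lay 6 of the 91 genes (6.59%), compared with 3.84% of all gene rows, a window chosen after the values were seen. They included *Zm00001d002326*, which lies 328 numbers from *nkd1*, the lipase *Zm00001d025827*, which lies 286 from *nkd2*, and *Zm00001d026290*. *Zm00001d018830* lies 141 numbers from *o2*. Whether the chromosome segment that came with an allele takes part in these values was not tested.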

How the data were processed

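The deposited values are raw read counts per gene, which the authors made with HTSeq 0.11.1 from HISAT2 2.1.0 alignments to B73 RefGen_v4, in a table for each library. SAMtools 1.9 and StringTie 1.3.6 are also named in the submitters' processing notes. The W22 reads were thus placed on B73 genes. The counting mode, strand setting, and annotation release are not given in the sources used here, so overlapping and near-identical genes are uncertain. Rows that name no gene were left out of library sizes.

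The rule for the 91 genes used CPM of the gene total. Genotypes were compared within a timepoint in one fit of its 32 libraries with edgeR 4.0.16 in R 4.3.3, after filterByExpr and TMM, by the quasi-likelihood test, and P-values were adjusted by the Benjamini-Hochberg method across the genes that passed the filter. WT at 12 and 8 DAP was compared in a fit of all 96 libraries. Replicate libraries held different counts in every group, and with these depths counting error is small except for genes of few reads. The genes named were the 3 mutated genes, the 10 with the lowest L among those of at least 10 CPM in WT, the 8 with the highest WT level, the DEGs with the largest falls and rises without overlap in 3 comparisons, transcription factors and listed genes with a symbol, and genes at the limits. Genes with an annotated product were added. The genes, lists, and tests were chosen with earlier results of these data known. Alternatives were DESeq2 1.42.0, its size factors, no low-count filter, the groups compared alone, no limit on the fold, a replicate block, each replicate left out, and the genes chosen on TMM values. No promoter or protein sequences were used here, so motifs were not searched.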

Additional observations from a re-analysis of the deposited data

Results flagged for a closer look

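In 9 of 147 groups of 4 libraries tested, over genes named in the text, 1 library lay far from the other 3, by a criterion that chance meets in about 1 of 20 groups. In *nkd1 nkd2* at 8 DAP, replicate 2 had 223.2 CPM of *Zm00001d045937*, against 34.83 to 43.9 CPM in the other libraries, and 82.49 CPM of the α-zein *Zm00001d048852*, against 0.4489 to 1.321 CPM. Replicate 3 of the same group had 14.4 CPM of *Zm00001d047503*, against 7.624 to 8.648 CPM. The α-zein was at 11.85 CPM in replicate 3 of WT at 8 DAP, against 0.3226 to 0.8226 CPM, and at 70.65 CPM in replicate 4 of *nkd1 nkd2 o2* at 16 DAP, against 0.05805 to 0.1172 CPM. *Zm00001d018830* was at 1142 CPM in replicate 1 of WT at 12 DAP, against 215.1 to 357 CPM. *Zm00001d043464* was at 10.86 CPM in replicate 1 of *nkd1 nkd2 o2* at 16 DAP, against 4.16 to 5.253 CPM. In *o2* at 16 DAP, *Zm00001d033612* was at 31.27 CPM in replicate 3, against 18.53 to 20.06 CPM, and *Zm00001d034871* was at 15.55 CPM in replicate 1, against 20.27 to 20.95 CPM. Causes were not tested.

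For 6 of 24 genes tested, the log2FC of *nkd1 nkd2 o2* against *o2* at 12 DAP differed from that of *nkd1 nkd2* against WT by the term for the difference (edgeR adjusted P-value under 0.05). Among all 24504 genes tested, the term was negative for 7.38% and positive for 7.46%. Some of the 24 genes were named for large falls in *nkd1 nkd2* against WT at 12 DAP, which is part of this term. The difference was -3.052 for *Zm00001d052958*, -1.595 for *Zm00001d039029*, -5.992 for *Zm00001d045937*, -1.586 for *Zm00001d047253*, and -1.865 for *Zm00001d051754*, where the fall was larger with *o2*. It was 2.087 for *Zm00001d034871* (edgeR adjusted P = 0.048), where log2FC was -0.01 with *o2* and -2.10 in the *O2+* background.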

How the results depend on the processing

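Over 373 recomputed counts, 271 stayed within 1.5 times the value reported and 102 did not, mostly where the count was small or the list was enlarged. Over 628 recomputed values of single named genes, 585 kept their direction and call, 34 lost the call, 1 gained it, and 8 changed sign, all of them without a call. Counts are given here as lower and higher genes. With each replicate left out of all groups in turn, *nkd1 nkd2* against WT gave 46 to 53 lower and 0 to 1 higher at 12 DAP and 4 to 8 and 0 to 3 at 8 DAP. *nkd1 nkd2 o2* against *o2* gave 55 to 67 and 0 to 1 at 16 DAP, 51 to 54 and 1 at 12 DAP, and 16 to 21 and 2 at 8 DAP. For *nkd1* against WT these were 1 to 2 and 0 at 12 DAP and 0 to 6 and 3 to 6 at 8 DAP, and for *nkd2* 1 to 4 and 0 to 4 at 12 DAP and 1 to 8 and 0 to 1 at 8 DAP. For *nkd1 o2* against *o2* at 16 DAP they were 17 to 30 and 0 to 2, for *nkd2 o2* 5 to 11 and 0 to 8, and for *o2* against WT 9 to 17 and 5 to 6 at 12 DAP and 6 to 10 and 11 to 12 at 8 DAP. Interactions gave 22 to 46 negative and 2 to 8 positive terms in the *o2* background at 16 DAP and 8 to 23 and 0 at 12 DAP, the difference between backgrounds 7 to 13 and 2 to 5, and WT at 12 against 8 DAP 7 to 8 lower and 48 to 53 higher. The rule itself gave 80 to 108 genes.

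Genes chosen on the TMM scale numbered 215, and they gave 115 lower and 1 higher gene in *nkd1 nkd2* against WT at 12 DAP, 5 higher at 8 DAP, 138 and 2 in *nkd1 nkd2 o2* against *o2* at 16 DAP, 103 and 7 at 12 DAP, and 39 and 5 at 8 DAP. In *nkd1* they gave 5 and 2 at 12 DAP and 12 lower at 8 DAP, in *nkd2* 4 and 5 at 12 DAP and 13 and 2 at 8 DAP, 53 lower in *nkd1 o2*, 16 lower in *nkd2 o2*, and in *o2* 34 and 14 at 12 DAP and 30 lower at 8 DAP. They gave 75 negative interactions with *o2*, 62 at 12 DAP, 36 and 18 for the difference, and 17 lower and 105 higher in WT. The limit of 0.3 on the single mutants gave 39 genes. DESeq2 gave 1 higher in *nkd1 nkd2* at 12 DAP, 2 higher in *nkd1* and 2 lower in *nkd2* at 12 DAP, and 4 lower in *nkd1* and 3 higher in *nkd2* at 8 DAP. Fits of the groups compared alone gave 1 higher in *nkd1 nkd2* at 12 DAP and 1 at 8 DAP, 3 higher in *nkd1 nkd2 o2* at 12 DAP, 0 higher in *nkd2* at 12 DAP, 0 lower and 3 higher in *nkd1* and 1 lower in *nkd2* at 8 DAP, and 2 higher in *nkd2 o2*. Without the limit on the fold, *nkd1 nkd2 o2* had 6 higher at 8 DAP, *nkd1* and *nkd2* 7 lower each at 12 DAP, *nkd1* 4 and 11 and *nkd2* 9 and 1 at 8 DAP, *nkd2 o2* 14 and 6, and *o2* 26 and 12 at 12 DAP. Without the low-count filter *nkd1* had 0 higher at 12 DAP and *nkd2* 3 lower at 8 DAP.

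The replicate block gave 56 lower genes in *nkd1 nkd2* at 12 DAP and 8 at 8 DAP, and 68 in *nkd1 nkd2 o2* at 16 DAP. It gave 0 higher in *nkd1* at 12 DAP and 3 lower in *nkd2* at 8 DAP, and it moved no other count by over 1.5 times. The replicate numbers did not pair the samples, since correlations of the deviations of same-numbered libraries ran from -0.39 to 0.49 and at most 2 of 4 pairs passed 0.1 in any comparison. Log2FC changed sign, with each replicate left out in turn, for *Zm00001d052958* (-0.51 to 0.22) and *Zm00001d018830* (-0.43 to 1.22) in *nkd1 nkd2* at 12 DAP, *Zm00001d048852* in *nkd1 nkd2* at 8 DAP (-2.17 to 5.46), and *Zm00001d034871* in *nkd1 nkd2 o2* at 16 DAP (-0.17 to 0.64). The share of promoters with a motif was not run.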

Other observations

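In *nkd2* at 12 DAP, several of the 91 genes had a high level in replicates 1 and 2 and a lower one in replicates 3 and 4. The jacalin-related lectin *Zm00001d011012* had 157, 243, 1.15, and 2.5 CPM, *Zm00001d014486* had 649, 637, 144, and 194 CPM, and the α-zein *Zm00001d048852* had 8126, 8076, 2426, and 1997 CPM. WT at 12 DAP had 0.0796, 57.7, 49.3, and 8.04 CPM of the lectin, 192, 219, 203, and 252 CPM of *Zm00001d014486*, and 2644, 5979, 5978, and 4831 CPM of the zein. None of the 3 genes passed the test in *nkd2* at 12 DAP.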
